A study of Mus musculus with 6 samples.

Results

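The miR-25, miR-92 and miR-363 seed family was followed through 6 rows of a small RNA count table of mouse exosomes, Mir25, Mir92-1, Mir92-2, Mir92b, Mir363 and Mir32. The rows were taken by their GENCODE M21 gene names, and they are 6 of the 1973 miRNA genes in the table. HN9.10e is an immortalized, wild-type embryonic hippocampal cell line, and the exosomes were isolated from its medium, which held fetal bovine serum, after 48 h. Cells were either left untreated (control, 3 libraries) or given ceramide, a sphingolipid, at 100 nmol/L (ceramide, 3 libraries), to determine which exosomal miRNAs change under ceramide. One row counts 1 hairpin gene, so both arms of a hairpin share a single raw count.

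A miRNA guides Argonaute proteins to messenger RNAs, mainly through its seed, bases 2 to 8 from the 5′ end, so miRNAs with one seed can share many targets. The hairpins of this family are spread over several transcripts. Mir25 is made from the miR-106b-25 cluster within Mcm7, a replication licensing gene. Mir92-1 ends the miR-17-92 cluster, which is known for promoting proliferation, and Mir92-2 and Mir363 end its X-linked paralog. Mir92-1 and Mir92-2 both give miR-92a, Mir92b gives miR-92b, and Mir32 is made from a separate gene.

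The mature sequences that carry the seed are shown because the seed defines the family and the rest of each sequence tells its members apart. They come from RefSeq on GRCm38.p6, which held all 6 genes, and capitals mark the seed.
miR-25-3p: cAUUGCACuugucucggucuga
miR-92a-3p: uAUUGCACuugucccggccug
miR-92b-3p: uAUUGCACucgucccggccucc
miR-363-3p: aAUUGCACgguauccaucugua
miR-32-5p: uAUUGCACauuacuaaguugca

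All 5 sequences share the seed AUUGCAC, on the 3p arm of 5 genes and on the 5p arm of Mir32. The 5 mature entries for the opposite arms of these hairpins did not carry it. Counted from 1 at the 5′ end of miR-92a-3p and over its 21 bases, miR-92b-3p differed by U10C and G21C and miR-25-3p by U1C, C14U and C18U. The other two were further away, with 10 differences in miR-32-5p and 11 in miR-363-3p. Among 1738 mature entries, the seed occurred in 1 further gene, Mir367, which had 0 counts in every library.

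Mir92-1 and Mir92-2 give the same miR-92a-3p. The hairpins are printed with this shared arm in capitals, because reads of the arm alone cannot be told apart.
Mir92-1: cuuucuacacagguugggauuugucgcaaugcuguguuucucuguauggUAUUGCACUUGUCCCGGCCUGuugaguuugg
Mir92-2: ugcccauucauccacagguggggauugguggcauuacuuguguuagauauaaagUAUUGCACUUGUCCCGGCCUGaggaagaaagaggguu

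The first base after the shared arm is U in Mir92-1 and A in Mir92-2. Mir92-1 held 94368 counts over the 6 libraries and Mir92-2 held 3826. The count of Mir92-1 divided by that of Mir92-2 was 21.9, 23.7 and 23.1 in control replicates 1, 2 and 3 and 24.2, 27.1 and 25.8 in ceramide replicates 1, 2 and 3. The rows thus did not hold the same reads. The study counted reads with STAR's GeneCounts mode, which is designed to count reads that align to a single place, although other rows of the table, such as Mir465c-1 and Mir465c-2, hold identical counts. The split between both miR-92a rows is therefore uncertain. Among the 1894 rows with a sequence in GENCODE M21, no other row shared 15 bases in a row with a mature sequence of these genes.

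On GRCm38, Mir25 lies at chr5:138165321-138165404 on the minus strand, over an exon of at least 1 Mcm7 transcript on the same strand. Mir92-1 lies at chr14:115044427-115044506 on the plus strand, within an exon of Mir17hg, a noncoding RNA. Mir92-2 lies at chrX:52741838-52741928 on the minus strand, and Mir363 at chrX:52741693-52741767, 70 bases beyond it. Mir32 lies at chr4:56895229-56895298 on the minus strand, in an intron of Tmem245. Mir92b lies at chr3:89227116-89227198 on the minus strand. GENCODE M21 placed no gene over Mir92-2, Mir363 or Mir92b, and none on the opposite strand of any of the 6.

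Total counts were between 800810 and 2760015 per library, lowest in ceramide replicate 1 and highest in ceramide replicate 2. The libraries were labelled with sequencing lane 1 (replicate 1 of both groups), lane 4 (the other control libraries) and lane 2 (the other ceramide libraries). The labels do not name the sequencing run, so libraries with the same lane number may come from different runs. Outside lane 1, lane and treatment cannot be told apart, and run and treatment may be confounded in all libraries. A normalized CPM (a count scaled to a common library size by the TMM method) is a share of the sequenced miRNAs, so less of 1 miRNA per exosome and more of the others cannot be told apart. Replicate numbers come from the labels, which do not name separate cultures, and p-values then measure only the spread between these libraries.

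The levels of the members spanned 3 orders of size. Mir25 ranked 9 of the 418 rows tested in control exosomes and 15 in ceramide exosomes, and Mir92-1 ranked 22 and 26. In both groups the order by normalized CPM was Mir25, Mir92-1, Mir92-2, Mir32, Mir92b and Mir363. Between neighbours, every library of the higher row lay above every library of the lower row in both groups, except for Mir92-2 and Mir32, which overlapped in ceramide. Per 100 bases of hairpin, Mir92-2 and Mir32 overlapped in control as well, at 525 to 590 CPM for Mir92-2 and 454 to 596 CPM for Mir32, and the other neighbours stayed apart. Of the counts of all 6 rows, Mir25 held 59.7% to 72.6% and Mir92-1 24.5% to 37.4%, so these 2 rows made up nearly all of the family. Ceramide replicate 1 had the largest share of Mir25 and the smallest share of Mir92-1.

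The 6 rows together held 3.76%, 3.92% and 3.74% of the counts in control replicates 1, 2 and 3. In ceramide replicates 1, 2 and 3 they held 2.20%, 2.51% and 2.50%. The groups did not overlap, and the family's share was lower in ceramide by more than the spread between replicates. The mean was 3.81 ± 0.0954% in control and 2.40 ± 0.176% in ceramide (SD, n = 3 each; two-sided exact permutation p = 0.1, the lowest value possible for 3 libraries against 3). Mir25 made up 2.52 ± 0.0624% of control and 1.55 ± 0.0539% of ceramide libraries (SD, n = 3 each), which is most of the difference of the family.

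Ceramide was compared with control by edgeR's quasi-likelihood test across 418 rows, and all 6 members passed its filter on low counts. To be called, a row had to reach both thresholds of the study, 0.05 for the p adjusted by the Benjamini-Hochberg method and 0.6 for the log2 fold change in either direction. Mir25 and Mir92-2 were called lower in ceramide, 2 of the 6, against 8.37% of all rows called lower. None of the 6 was called higher, against 3.11% of all rows. Without the fold threshold the same 2 had an adjusted p of at most 0.05 and were lower, against 12.7% of all rows. The log2 fold change was negative for 5 of the 6, and the median was -0.46 over the 6 and -0.01 over all 418 rows. In 3 of the 6, Mir25, Mir92-1 and Mir92-2, all ceramide libraries lay below all control libraries, which held for 25.1% of all rows. In none did all lie above, against 14.1% of all rows. Mir92-1 and Mir92-2 give the same miR-92a-3p and the split of reads between them is uncertain. They may therefore not be separate measurements, here and in later counts of members.

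Markers of the labelled cell type and of serum were read in the same libraries. Of 14 neuronal miRNAs listed, 13 had a row, none was at 0, and their summed level was 21597 to 22794 CPM in control and 20105 to 25040 CPM in ceramide. Of the 13, 2 were called lower, Mir128-2 and Mir138-1, against the 8.37% of all rows, and none higher. The other miR-138 row, Mir138-2, overlapped between groups (-0.21, edgeR adjusted p = 0.255). Mir218-1 (-0.09, edgeR adjusted p = 0.461) and Mir132 (-0.01, edgeR adjusted p = 0.984) overlapped too, as did Mir9-2 and Mir9-3. Mir128-1 had an edgeR adjusted p of 0.00527 with a log2 fold change short of the threshold (-0.55). The 3 Mir124a rows, which mark mature neurons, were at 19.0 to 20.96 CPM in control and 14.3 to 14.9 CPM in ceramide. They were lower in every ceramide library without being called (edgeR adjusted p = 0.139 to 0.156). These rows held nearly the same values in each library and may not be separate measurements. Mir137 lay higher in every ceramide library (0.24, adjusted p = 0.0906). Mir218-2, the most abundant of the 13, had 7858 to 9848 CPM in control. In ceramide it had 9709 to 14474 CPM, with an overlap between groups (0.46, edgeR adjusted p = 0.0946). The summed level therefore joins rows with negative and positive log2 fold changes, of which only Mir128-2 and Mir138-1 were called. For miRNAs of blood cells and liver, which serum can carry, 6 of 8 names had a row, none was at 0, and none was called. Their summed level was 389 to 424 CPM in control and 363 to 413 CPM in ceramide. Mir486 was the largest part in every library, though only 178 of 363 CPM in ceramide replicate 1. Mir122 had 51.9 to 61.9 CPM in control and 73.7 to 75.4 CPM in ceramide (0.39, adjusted p = 0.0635), and Mir223 had 19.0 to 22.8 CPM and 27.2 to 36.4 CPM (0.58, adjusted p = 0.0553), both higher in every ceramide library. Mir150 lay lower in every ceramide library (-0.37, adjusted p = 0.282). The name Mir142 had no row. A row named Mir142b, outside the list, lay higher in every ceramide library (0.40, edgeR adjusted p = 0.126). The part of these markers in the members' values was not tested.

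**Figure D1:**
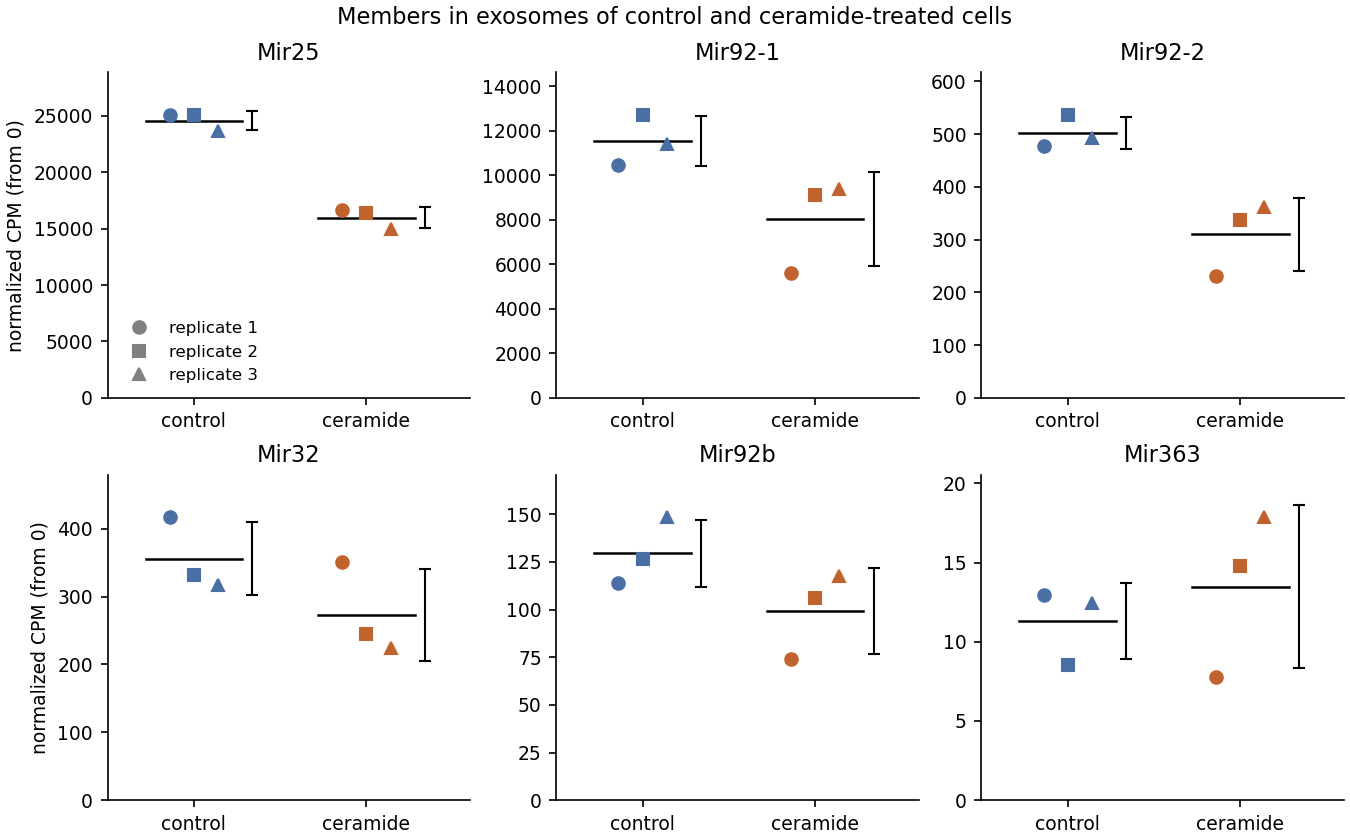
Normalized CPM of the 6 rows in each library, with an axis from 0 in every panel; points are libraries (shape gives the replicate number), horizontal lines are group means and bars are SD (n = 3). The groups are separate for Mir25, Mir92-1 and Mir92-2, and ceramide replicate 1 is the lowest ceramide library for both miR-92a rows, Mir92b and Mir363.

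Mir25, whose mature form miR-25-3p is known as a regulator of cell cycle inhibitors, had 25036, 25091 and 23607 CPM in control replicates 1, 2 and 3. In ceramide replicates 1, 2 and 3 it had 16612, 16360 and 14932 CPM. The groups lay far apart relative to their spread. The mean was 24578 ± 841 CPM in control and 15968 ± 906 CPM in ceramide (SD, n = 3 each). On the log2 scale Mir25 fell by 0.62 (standard error 0.07, edgeR adjusted p = 0.0026). The value sits close to the fold threshold. It lost the call without control replicate 2 (-0.59) and without ceramide replicate 3 (-0.57), with an adjusted p of 0.0138 and 0.00684. Between same-numbered libraries, the difference was -0.59, -0.62 and -0.66 for replicates 1, 2 and 3, the narrowest range of the 6 rows.

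Mir92-2, the X-linked miR-92a hairpin, had 478, 537 and 492 CPM in control replicates 1, 2 and 3. It had 231, 337 and 363 CPM in ceramide replicates 1, 2 and 3. All ceramide libraries were lower, and ceramide replicate 1 was lowest. Control exosomes held 502 ± 30.6 CPM on average and ceramide exosomes 310.2 ± 69.6 CPM (SD, n = 3 each). Mir92-2 changed by -0.69 on the log2 scale (standard error 0.17, edgeR adjusted p = 0.0380). The call of Mir92-2 was lost when any of 5 libraries was left out, ceramide replicate 3 being the exception. Without ceramide replicate 1 the log2 fold change was -0.54 with an adjusted p of 0.0157, and without control replicate 1, control replicate 2, control replicate 3 or ceramide replicate 2 the adjusted p lay between 0.0835 and 0.124.

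Mir92-1, the main miR-92a row, had 10462, 12717 and 11396 CPM in control replicates 1, 2 and 3. In ceramide replicates 1, 2 and 3 it had 5591, 9133 and 9370 CPM. The groups did not overlap, but the ceramide libraries were spread widely. The mean was 11525 ± 1133 CPM in control and 8031 ± 2117 CPM in ceramide (SD, n = 3 each). This gave a log2 fold change of -0.52 (95% interval -0.99 to -0.05). Mir92-1 did not pass (standard error 0.20, edgeR adjusted p = 0.109). Without ceramide replicate 1 its log2 fold change was -0.34 (adjusted p = 0.0636).

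Mir32 had 417, 332 and 318 CPM in control replicates 1, 2 and 3 and 351, 244 and 224 CPM in ceramide replicates 1, 2 and 3. The groups overlapped, and replicate 1 was the highest library of both. The log2 fold change was -0.39 (standard error 0.20, 95% interval -0.86 to 0.08, edgeR adjusted p = 0.200). Without ceramide replicate 1, Mir32 was called lower (-0.62, adjusted p = 0.0373).

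Mir92b, which is known from neural progenitors, had 114, 127 and 149 CPM in control replicates 1, 2 and 3. Its ceramide replicates 1, 2 and 3 had 74.1, 106 and 118 CPM, with an overlap between groups. The log2 fold change was -0.37 (standard error 0.19, 95% interval -0.82 to 0.09, edgeR adjusted p = 0.213).

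Mir363 was the rarest of the family, with 13, 12 and 17 counts in control replicates 1, 2 and 3 and 6, 39 and 42 counts in ceramide replicates 1, 2 and 3. These counts correspond to 13.0, 8.53 and 12.4 CPM in control and 7.80, 14.8 and 17.9 CPM in ceramide. Ceramide replicate 1 was the lowest library of all and the other ceramide libraries the highest. The exact 95% Poisson interval of the 6 counts in ceramide replicate 1 was 2.20 to 13.1 counts, which covers counting error only. The log2 fold change of 0.37 (standard error 0.31, 95% interval -0.37 to 1.10, edgeR adjusted p = 0.41) did not pass the test, and its interval spans 0.

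**Figure D2:**
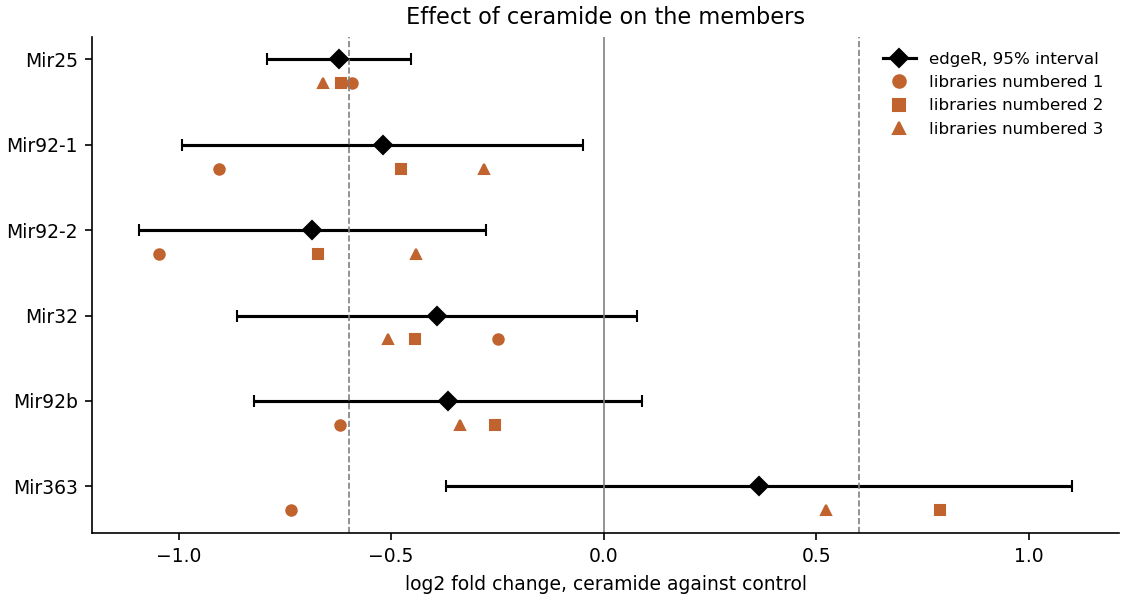
Log2 fold change of each row, ceramide against control, on the x axis; diamonds and bars are edgeR estimates with 95% intervals, smaller points are differences between libraries of the same replicate number, and dashed lines mark the threshold of 0.6 in both directions. Mir25 has the narrowest interval, and the libraries numbered 1 give the lowest point for the miR-92a rows, Mir92b and Mir363 and the highest for Mir25 and Mir32.

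Libraries with the same replicate number deviated together, so the test was repeated with the replicate number as a block. With the replicate block, 5 of the 6 had an adjusted p of at most 0.05 and were lower, against 24.9% of all rows (edgeR adjusted p = 0.000597 for Mir25, 0.00725 for Mir92-2, 0.0119 for Mir92-1 and Mir32 and 0.0242 for Mir92b). Their log2 fold changes were -0.62, -0.69, -0.55, -0.41 and -0.37 in the same order, so with the threshold of 0.6 the calls were again Mir25 and Mir92-2. Mir363 had 0.41 (adjusted p = 0.246). Lane 1 was the only lane number found in both groups, with 1 library of each. The labels of these libraries do not name a run. Both carry the same sample number, so they may come from separate runs and are not known to share a batch. The log2 differences between these libraries were -0.59 for Mir25, -0.90 for Mir92-1 and -1.05 for Mir92-2. They were -0.62 for Mir92b, -0.25 for Mir32 and -0.73 for Mir363. For Mir363 this compares 6 with 13 counts, whose exact 95% Poisson intervals of 2.20 to 13.1 and 6.92 to 22.2 overlap.

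The members also differed in how they followed the 6 libraries. Likeness was measured as the root mean square difference between 2 rows' log2 CPM, each taken relative to its own mean over the 6 libraries. The closest members were Mir92-1 and Mir92-2 (0.10), which share an arm, followed by Mir92-1 and Mir92b (0.15). The farthest were Mir363 and Mir32 (0.62). Mir25 was closest to Mir32 (0.23).
Among 205 other rows with a mean of at least 100 CPM, those most like Mir25 were Mir465c-1 and Mir465c-2, which held the same values (0.04), and Mir146 (0.05). Mir92-1 was most like Mir181a-2 (0.13), Mir181a-1 (0.15) and Mir181b-1 (0.16), and Mir92-2 was most like Mir100 (0.14), Mir181a-2 (0.15) and Mir181a-1 (0.16). Mir32 was most like Mir107 (0.08), Mir145a (0.09) and Mir471 (0.11). Mir92b was most like Mir486 (0.15), an erythroid miRNA with 178 to 283 CPM, Mir700 (0.17) and Mir574 (0.18). For Mir363 the nearest rows, Mir744 (0.22), Mir132 (0.24) and Mir106b (0.25), were farther away. All distances of Mir363, also that to Mir32, include the counting error of its 6 to 42 counts per library. How much of them this makes up was not tested.

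Mir25, Mir92-1, Mir92-2 and Mir363 are cut from transcripts that carry other hairpins, and these 11 partners were all tested. Of the partners, 8 had a positive log2 fold change, as did 206 of the 418 rows tested. None of the 8 was called higher, against 3.11% of all rows. Only Mir20b among them had an adjusted p of at most 0.05 (0.55, edgeR adjusted p = 0.0496). The other 3 partners were called lower, against 8.37% of all rows. All 3 were miR-19 rows, of which Mir19b-1 and Mir19b-2 had nearly the same values (906.6 ± 60.3 and 906.2 ± 61.2 CPM in control, SD, n = 3 each). Mir19b-1 and Mir19b-2 may therefore not be separate measurements.

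Mir25 is the last of 3 hairpins in its cluster, after Mir106b and Mir93. While Mir25 fell by 0.62 on the log2 scale, the log2 fold change was 0.24 for Mir93 (standard error 0.07, edgeR adjusted p = 0.0532) and 0.18 for Mir106b (standard error 0.12, adjusted p = 0.327). Mir93, a miR-17 family member, was at 49615 ± 2991 CPM in control and at 58563 ± 2079 CPM in ceramide (SD, n = 3 each). The log2 ratio of Mir25 to the mean of both partners, which does not depend on scaling between libraries, was 1.36, 1.34 and 1.23 in control replicates 1, 2 and 3. It was 0.67, 0.52 and 0.25 in ceramide replicates 1, 2 and 3. The groups did not overlap, and the mean ratio fell by 0.83. In total 8 ratios were tested, and this one had an exact two-sided permutation p = 0.1, again the lowest possible, and 0.267 after Benjamini-Hochberg adjustment.

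**Figure D3:**
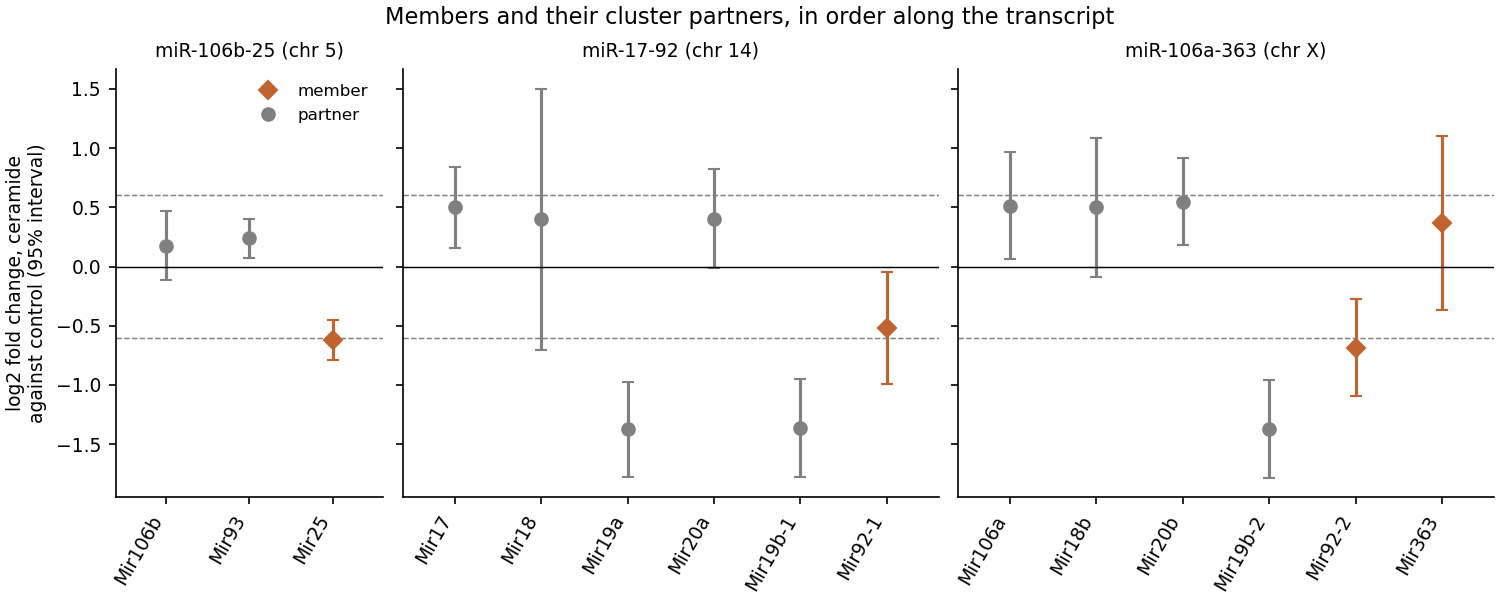
Log2 fold change, ceramide against control, of members (diamonds) and partners (circles) in 3 clusters, in order along each transcript; bars are 95% intervals from edgeR and dashed lines mark 0.6 in both directions. Mir25, Mir92-1, Mir92-2 and the miR-19 rows lie below 0, and the remaining hairpins of the same clusters lie above it, with intervals that span 0 for Mir363, Mir106b, Mir18, Mir20a and Mir18b.

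In the X-linked cluster, the log2 ratio of Mir92-2 to the mean of Mir106a, Mir18b, Mir20b and Mir19b-2 was 2.46, 2.61 and 2.42 in control replicates 1, 2 and 3. It was 1.22, 1.94 and 2.12 in ceramide replicates 1, 2 and 3, without overlap. The difference was -0.74 (exact permutation p = 0.1, 0.267 adjusted over the 8 ratios) and -0.47 without ceramide replicate 1. For Mir363, the neighbour of Mir92-2, the ratio to the same partners was -2.61, -3.17 and -2.75 in control and -3.46, -2.46 and -2.13 in ceramide. These values overlapped (difference 0.16, exact permutation p = 0.7). The partner mean of both ratios joins Mir19b-2 at -1.37 with Mir106a (0.51), Mir18b (0.50) and Mir20b (0.55). Both ratios therefore depend on the Mir19b-2 row, and ratios without it were not tested.
In the miR-17-92 cluster, the log2 ratio of Mir92-1 to the mean of its 5 partners was 2.94, 3.35 and 2.92 in control and 2.28, 3.22 and 3.00 in ceramide, which overlapped (difference -0.24, exact permutation p = 0.6). The mean of these partners joins 2 miR-19 rows at -1.38 and -1.37 with Mir17 (0.50), Mir18 (0.40) and Mir20a (0.40).

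**Figure D4:**
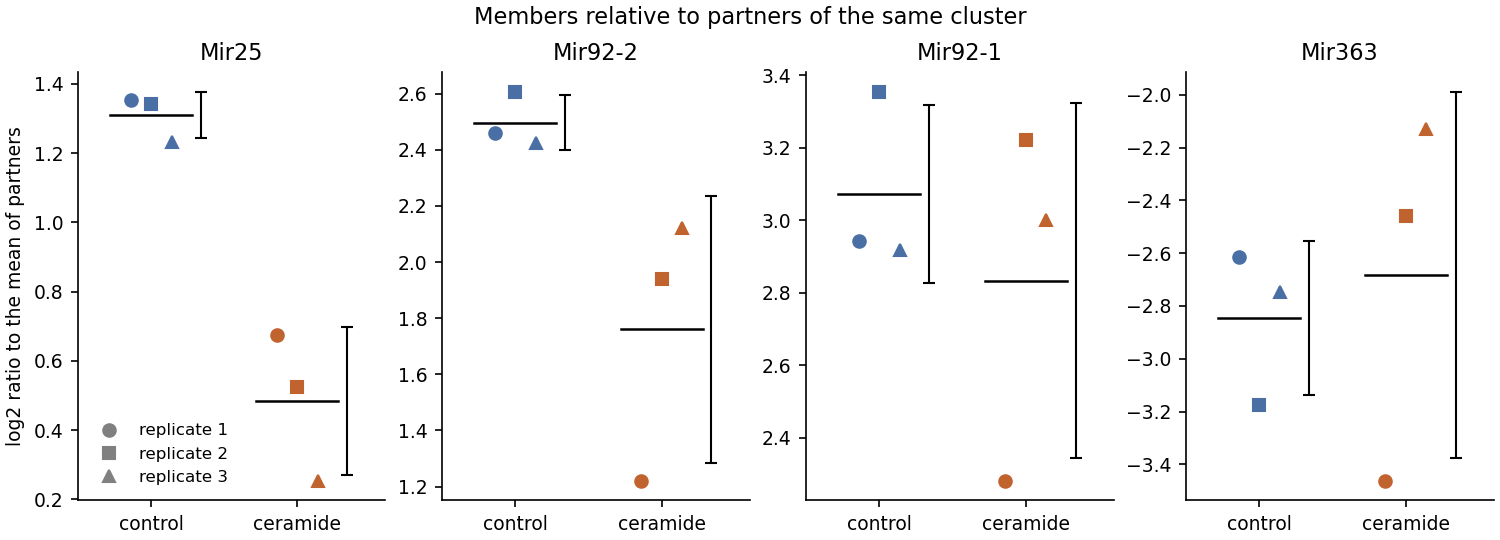
Log2 ratio of 4 members to the mean log2 level of the partners in the same cluster (y axis, own range in each panel), in each library; shapes give the replicate number, lines the means and bars the SD (n = 3). Control and ceramide are separate for Mir25 and Mir92-2 and overlap for Mir92-1 and Mir363.

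Relative to Mir92-1 in the same library, Mir363 was higher in ceramide without overlap, with log2 ratios of -9.52, -10.3 and -9.70 in control replicates 1, 2 and 3 and -9.27, -9.15 and -8.94 in ceramide replicates 1, 2 and 3. The difference was 0.74 (exact permutation p = 0.1, 0.267 adjusted over the 8 ratios), and it rests on the low counts of Mir363. For Mir25, Mir92b and Mir32 the ratio to Mir92-1 overlapped between groups, with differences of -0.07, 0.16 and 0.16 (exact permutation p = 0.9, 0.3 and 0.9).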

How the data were processed

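The authors removed adapters with Cutadapt 1.15, aligned reads to GRCm38 (mm10) with STAR 2.5.3a (versions from the submitters' processing notes) and deposited raw counts per GENCODE miRNA gene, made with STAR's TranscriptomeSAM and GeneCounts modes. The strand setting and the handling of molecular identifiers are not given in the sources used here, so counting error may exceed what counts imply. Of the 1973 rows, 1894 matched GENCODE M21.

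Counts were tested with edgeR 4.0.16 (R 4.3.3): TMM, filterByExpr (418 rows), condition as the only term, quasi-likelihood test, Benjamini-Hochberg adjustment over all 418 rows. Shares and ratios were compared by exact permutation. Ratios used log2 CPM with a prior count of 2. Alternatives included DESeq2 (the study's tool, run here in version 1.42.0) and voom in limma 3.58.1. Deviations from group means correlated at 0.591, 0.426 and 0.752 for same-numbered libraries 1, 2 and 3. The replicate number was therefore used as a block in an alternative fit, and the main fit and permutations left it out. It comes from the labels, which do not state a pairing. The procedure was tested on simulated data. Named rows were the 6 members, their cluster partners from fixed lists and, for each member, the 3 most similar rows. Members and lists were chosen with earlier results of these data known.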

Additional observations from a re-analysis of the deposited data

How the results depend on the processing

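The log2 fold changes of Mir25, Mir92-1, Mir92-2, Mir92b and Mir32 stayed negative under all 15 alternatives. The call of Mir25 was lost on the fold threshold with DESeq2's size factors in edgeR (-0.55), upper-quartile factors (-0.56) and DESeq2 (-0.5997). With the lane as a term (-0.59), Mir25 was short of both thresholds. With DESeq2's size factors in edgeR, upper-quartile factors and no filter, Mir92-2 lost its call on the adjusted p alone. Its log2 fold changes were -0.61, -0.62 and -0.70 in the same order (edgeR adjusted p = 0.0541, 0.0516 and 0.0898). With DESeq2, Mir92-2 kept its call (-0.66, DESeq2 adjusted p = 0.0118), whereas Mir25 missed only the fold threshold (DESeq2 adjusted p = 0.000461). The study's own list of lowered miRNAs, made with DESeq2, likewise held mir-92a-2 and not mir-25. Relative to the median of all rows, Mir25 lay between -0.6171 and -0.614 and Mir92-2 between -0.6781 and -0.6726 under the 4 scalings. With the lane as a term, the effect is that of the single pair of libraries labelled lane 1. The other libraries supply only the spread (2 residual degrees of freedom). That fit called Mir92-1 (-0.90) and gave -0.73 for Mir363, and it compares 1 library with 1. Leaving out 1 library gave -0.67 to -0.57 for Mir25, -0.64 to -0.34 for Mir92-1, -0.80 to -0.54 for Mir92-2, -0.49 to -0.24 for Mir92b, -0.62 to -0.27 for Mir32 and 0.17 to 0.52 for Mir363. The replicate block changed no call of a member, and over all rows it gave 87 calls against 48. The lane term gave 29, and leaving out 1 library 28 (without control replicate 1) to 55. The difference in the family's share stayed between -1.46 and -1.31 percentage points when 1 library was left out. For ratios to partners, the difference with 1 library left out was -0.92 to -0.71 for Mir25, -0.92 to -0.47 for Mir92-2, -0.43 to 0.04 for Mir92-1 (reversed, at 0.0380, without ceramide replicate 1) and -0.11 to 0.55 for Mir363 (reversed without ceramide replicate 3 and, at -0.0020, without control replicate 2). For ratios to Mir92-1 it was -0.34 to 0.11 for Mir25 (reversed at 0.0126, 0.0250 and 0.11 without control replicate 1, ceramide replicate 2 and ceramide replicate 3), 0.07 to 0.26 for Mir92b, 0.49 to 0.90 for Mir363 and -0.28 to 0.42 for Mir32 (reversed without ceramide replicate 1). The causes of these changes were not tested. Mir363 had 129 counts over all libraries, the fewest of the 6 rows.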
